A study of Mus musculus with 12 samples.

Results

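Neurons made from mouse embryonic stem (ES) cells in the presence of an early WNT agonist were compared with neurons made by an isocortical protocol. The agonist group, CHIR_8-16, held 2 of the 12 arrays of the series. Its cultures received the WNT inhibitor 53AH at 2.5 µM and the BMP inhibitor LDN193189 at 0.25 µM up to day 8, and then the agonist CHIR at 3 µM up to day 16. The other group, WiBi_0-11, also held 2 arrays and received both inhibitors at the same doses up to day 11, with no agonist. Samples were assigned by their titles and all 4 were collected at day 16 of differentiation in vitro. The labels call the agonist protocol hippocampal and the WiBi 11 protocol isocortical, and the protocol steps of 3 and 4 days put the change of medium at day 7 rather than at day 8. Because CHIR_8-16 had both a shorter inhibitor treatment and an agonist, the effects of these cannot be told apart here. Another 4 culture arrays served as a second pair of groups: CHIR_11-16, with both inhibitors up to day 11 and the agonist from day 11 to day 16 at a dose the labels do not give, and WiBi_0-16, with both inhibitors up to day 16. All cultures came from male ES cells of a 129/Ola background, the number of lines is not stated, and each array measured RNA pooled from 3 sets of experiments. Hippocampus, cortex, ventral telencephalon and midbrain of E15 Sv129s6 embryos, of both sexes mixed, were measured on 1 array each.

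In canonical WNT signalling, a ligand bound to Frizzled and LRP receptors stops the kinase GSK3 from marking beta-catenin for breakdown, and beta-catenin then works with TCF and LEF factors on target genes. CHIR inhibits GSK3 directly and so acts below the receptors. In the embryonic forebrain the cortical hem at the medial edge of the pallium is a source of WNT and BMP proteins, and the hippocampus forms beside it, while the cortex forms farther away. The ventral telencephalon gives rise to GABAergic interneurons and to the first oligodendrocyte precursors, and WNT signalling is known to favour dorsal over ventral fates there.

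Levels are log2 intensities relative to the 75th percentile of the array, so that a level of 0 equals that percentile and each unit is a factor of 2. Slide 2 carried replicate 1 of every culture group and slide 3 carried replicate 2, and a group's values follow that order. Differences are CHIR_8-16 minus WiBi_0-11 within a slide, and their mean over both slides was tested in limma with slide as a block over all 8 culture arrays. Genes were called at an adjusted p under 0.05 over 25538 genes. A p-value here measures the spread between pooled samples, which may be technical, and the number of arrays, 2 per group, limits precision. On the culture arrays 61.2% to 71.2% of the spots were well above background, and 0 spots were saturated.

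In CHIR_8-16 the proneural gene Neurog2 and the WNT mediator Lef1 were the largest called rises with a gene symbol, while Sp8, Gad1, Olig1, Olig2, Egfr and Col3a1, of ventral telencephalon, GABAergic neurons, oligodendrocyte precursors, late progenitors and connective tissue, fell. Of 25538 genes 79 (0.309%) were called, 20 (0.0783%) of them higher and 59 (0.231%) lower in CHIR_8-16. The folds of the genes called higher ran from 1.98 to 8.81 with a median of 3.0, and those of the genes called lower from 1.54 to 34.1 with a median of 4.06. For 4 of the 20 and 18 of the 59 genes the fold is only a lower bound, and both smallest values are such bounds. Without slide as a block 3 genes (0.0117%) were called, which were Egfr, Frat1 and Ibsp, all lower in CHIR_8-16. Leaving out either WiBi_0-11 array left 0 calls, with 2722 and 4060 genes at an unadjusted p under 0.05, and so did a fit of these 4 arrays alone, with 3467.

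Of 24188 genes measured in these groups, 521 (2.15%) were at least 2-fold apart in the same direction on both slides. Of these, 223 (0.922% of the 24188) were higher in CHIR_8-16 and 298 (1.23%) were lower. Another 51 (0.211%) were at least 2-fold apart in opposite directions on the 2 slides. Without a size limit, 36.9% of the 25538 genes were higher on both slides and 28.7% were lower on both. The counts of list members higher or lower on both slides, given below, are to be read beside these shares. Of the called genes, 19 of 20 higher and 49 of 59 lower ones were at least 2-fold apart on each slide. The plot of the difference within each slide shows these genes away from the cloud of all genes. They were called on the mean of the same differences, so the plot and the 2-fold counts only describe them.

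**Figure D1:**
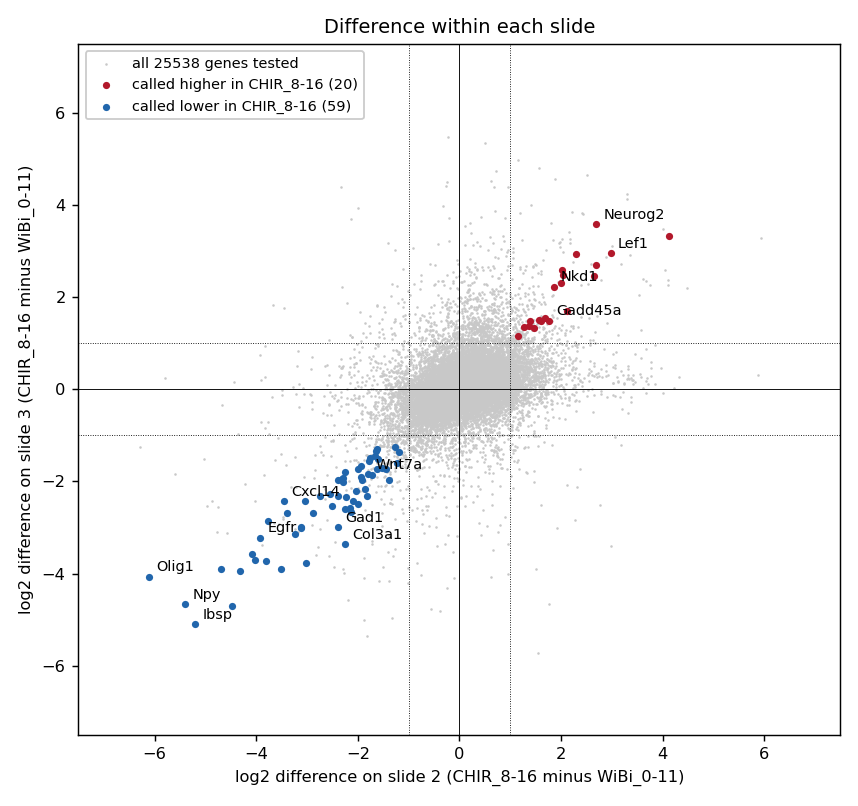
Log2 difference (CHIR_8-16 minus WiBi_0-11) on slide 2 (x axis) against slide 3 (y axis) for 25538 genes, with 20 genes called higher in red, 59 called lower in blue and dotted lines at 2-fold. All called genes lie in the 2 quadrants where both slides agree in sign, such as Olig1 at -6.12 and -4.06 and Neurog2 at 2.69 and 3.59. The calls rest on the mean of these 2 differences, so this agreement comes largely with the choice of genes.

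Neuronal markers were bright and close in level in both groups. The log2 of the summed linear level of 5 neuron markers (Tubb3, Dcx, Stmn2, Map2 and Snap25) was 7.91 and 8.05 in CHIR_8-16, against 8.07 and 8.03 in WiBi_0-11. The same sum of 5 radial glia markers was 7.24 and 8.31 in CHIR_8-16, against 7.94 and 8.38 in WiBi_0-11. Of the 19 genes of the pan-neuronal and presynaptic list 0 were called, 2 were higher and 12 lower on both slides, and the median difference was -0.22, beside 0.05 over all genes tested. Of 20 cell cycle and DNA replication genes 0 were called and 14 had opposite signs on the 2 slides, with a median of 0.12. Pou5f1 and Zfp42, which define pluripotent cells, and Cdh5 of endothelium were not among the tested genes. The other 2 pluripotent cell markers, Nanog and Dppa5a, were well above background on all 4 arrays. The log2 of their summed linear level was -0.07 and 1.55 in CHIR_8-16, against -0.67 and 2.74 in WiBi_0-11. Of 11 pluripotency genes 9 were tested and 0 called, with 2 higher and 3 lower on both slides. The proliferation marker Mki67 had levels of 3.99 and 3.21 in CHIR_8-16, against 3.53 and 3.30 in WiBi_0-11 (difference 0.19, adjusted p = 0.77).

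Feedback genes of the WNT pathway leaned higher in the agonist cultures, and Lef1 and Nkd1 were called. Lef1, which binds DNA together with beta-catenin and is itself a WNT target, had levels of 4.22 and 3.37 in CHIR_8-16, against 1.24 and 0.41 in WiBi_0-11, a 7.82-fold rise (log2 2.97, SE 0.22, adjusted p = 0.024; mm9 chr3:130926200-130926259). Nkd1, an inhibitor of Dishevelled that WNT signals induce, had levels of 1.82 and 2.35 in CHIR_8-16, against -0.03 and 0.12 in WiBi_0-11, a 4.12-fold rise (log2 2.04, SE 0.20, adjusted p = 0.041; chr8:91116160-91116219). For both genes the lower CHIR_8-16 array lay above the higher WiBi_0-11 array. A second Lef1 probe differed by 3.73 and 3.11 on the 2 slides, and a second Nkd1 probe by 0.05 and 2.43. In bulk RNA, more cells of a type and more RNA per cell cannot be told apart.

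Further members were higher on both slides without being called, Sp5 and Tnfrsf19 by at least 2-fold on each. Sp5, a zinc finger repressor induced by WNT, had levels of 0.11 and 0.65 in CHIR_8-16, against -3.65 and -1.61 in WiBi_0-11 (difference 3.01, adjusted p = 0.098). Tnfrsf19, a receptor of the TNF family, had 3.46 and 2.44 in CHIR_8-16, against 0.41 and 0.66 in WiBi_0-11 (difference 2.41, adjusted p = 0.071). Axin2, a scaffold that limits beta-catenin and the usual reporter gene of the pathway, had -0.59 and 0.71 in CHIR_8-16, against -1.33 and -1.09 in WiBi_0-11 (difference 1.27, adjusted p = 0.14). The differences of these 3 genes were uneven between the slides, at 3.76 and 2.27 for Sp5, 3.05 and 1.77 for Tnfrsf19 and 0.74 and 1.80 for Axin2. Over the 17 genes of the WNT feedback and target list the median difference was 0.92, with 2 called higher and 0 lower, and 10 higher and 1 lower on both slides. Another 6 had opposite signs on the 2 slides, such as the antagonist Dkk1 at 1.61 and -2.50. The gene lower on both slides was Notum, an enzyme that inactivates WNT proteins, with 1.70 and 1.74 in CHIR_8-16 against 2.43 and 2.73 in WiBi_0-11.

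The promoters of Sp5 and of an internal start of Lef1 are shown because they hold the TCF/LEF core motif, searched as CTTTG followed by a pair of bases that are each A or T, on both strands in the 250 bases before each start. The sequences are those of RefSeq on GRCm38.p6, 5′ to 3′ on the strand of the gene, with the motif in capitals.
Sp5, chr2:70474673-70474922, plus strand: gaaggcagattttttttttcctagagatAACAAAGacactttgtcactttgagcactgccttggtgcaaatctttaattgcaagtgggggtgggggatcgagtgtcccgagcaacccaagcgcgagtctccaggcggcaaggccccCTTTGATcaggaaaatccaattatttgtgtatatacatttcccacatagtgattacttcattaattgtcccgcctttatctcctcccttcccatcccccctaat
Lef1, chr3:131156044-131156293, plus strand: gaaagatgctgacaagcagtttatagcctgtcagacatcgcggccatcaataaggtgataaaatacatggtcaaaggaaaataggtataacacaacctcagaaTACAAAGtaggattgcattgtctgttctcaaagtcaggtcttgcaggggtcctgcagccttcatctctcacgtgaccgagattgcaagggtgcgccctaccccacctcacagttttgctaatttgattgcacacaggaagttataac
Sp5 holds 2 such motifs, with first bases at -222 and -104 from the start site, and this Lef1 window holds 1, at -147. The other Lef1 windows, at starts farther upstream, hold none, and neither do the windows of Nkd1 and Axin2. The motif stood in 14.8% of all 32851 promoter windows of this length, and 16.8% of 27025 genes had it in at least 1 window. Of the called genes with a window in the table, 2 of 15 higher (13.3%) and 5 of 39 lower (12.8%) held it, close to the share of all genes. In the tested WNT feedback and target genes it was 4 of 11 (36.4%). These are matches of letters and no evidence of binding.

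Among the ligands of the pathway 1 was called. Wnt7a, a ligand made by cortical and other neural progenitors, fell 3.53-fold: its levels were -1.77 and -1.53 in CHIR_8-16, against 0.03 and 0.30 in WiBi_0-11 (log2 -1.82, SE 0.15, adjusted p = 0.024; chr6:91314653-91314712). Wnt10a, another canonical ligand, had -1.66 and -2.68 in CHIR_8-16, against -7.59 and -5.97 in WiBi_0-11, where it was not well above background on either array, so that it was at least 11.9-fold higher (adjusted p = 0.068, not called). Wnt8b, which marks the hem and the hippocampal primordium, had -0.46 and 1.78 in CHIR_8-16, against -0.80 and -1.43 in WiBi_0-11. Its difference was 0.34 on slide 2 and 3.21 on slide 3 (adjusted p = 0.22), and a second probe gave -0.82 and 3.03, so that 1 array carried the difference. Of 14 ligand genes tested 1 was called lower and 0 higher, and the median was 0.40. On both slides 6 were higher and 3 lower, beside 36.9% and 28.7% of all genes.

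Frat1 and Frat2, which encode GSK3-binding proteins that keep GSK3 from its WNT pathway substrates, fell together. Frat1 had levels of -1.32 and -1.23 in CHIR_8-16, against 1.55 and 1.46 in WiBi_0-11, a 6.88-fold fall (log2 -2.78, SE 0.13, adjusted p = 0.015; chr19:41906864-41906923). Frat2 had -1.61 and -1.76 in CHIR_8-16, against 0.52 and 0.89 in WiBi_0-11, a 5.26-fold fall (log2 -2.39, SE 0.18, adjusted p = 0.024; chr19:41920708-41920767). For both genes the CHIR_8-16 arrays were close to each other and both lay below the WiBi_0-11 arrays. The probes of these neighbouring genes lie 13.8 kb apart on mm9 and share at most 5 bases in a row of 60. A second Frat2 probe was lower by 0.55 on slide 2 and by 0.30 on slide 3.

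The Frat1 and Frat2 promoter windows are shown because these neighbours fell together and share bases close to the start site. Runs of at least 10 bases found in both are in capitals (RefSeq, GRCm38.p6, strand of the gene).
Frat1, chr19:41829720-41829969, plus strand: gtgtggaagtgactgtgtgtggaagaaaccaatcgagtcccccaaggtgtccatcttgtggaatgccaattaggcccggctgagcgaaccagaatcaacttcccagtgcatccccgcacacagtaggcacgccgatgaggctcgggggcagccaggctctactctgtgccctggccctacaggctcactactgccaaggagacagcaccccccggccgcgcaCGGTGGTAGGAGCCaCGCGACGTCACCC
Frat2, chr19:41848133-41848382, minus strand: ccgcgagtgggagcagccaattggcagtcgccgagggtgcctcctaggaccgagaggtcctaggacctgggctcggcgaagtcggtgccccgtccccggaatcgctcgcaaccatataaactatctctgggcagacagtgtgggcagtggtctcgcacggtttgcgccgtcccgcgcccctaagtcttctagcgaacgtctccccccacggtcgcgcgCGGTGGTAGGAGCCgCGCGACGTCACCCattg
The first run has 14 bases and begins 28 bases before the start of Frat1 and 32 before that of Frat2, and the second has 13 bases. Each run was found in 2 of 32851 promoter windows, which are these. Neither window holds the TCF/LEF core motif.

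Receptors and transducers had no common direction. Of 25 genes of that list 2 were called lower (Frat1 and Frat2), 11 were higher and 11 lower on both slides, and the median was 0.10. Fzd9, a Frizzled receptor, was higher on both slides by 1.32 and 1.84 (adjusted p = 0.060). Beta-catenin itself (Ctnnb1) differed by -0.29 and Gsk3b by 0.46, and neither was called. Among 10 secreted modulators 0 were called and the median was 0.46, with 0.06 on slide 2, 0.92 on slide 3 and a range of -0.04 to 0.46 over the alternatives. The antagonist Sfrp1 had -0.74 and -1.16 in CHIR_8-16, against 0.87 and 0.40 in WiBi_0-11 (difference -1.59, adjusted p = 0.058). Sostdc1, an inhibitor of both WNT and BMP signals, had -1.56 and 0.27 in CHIR_8-16, against -4.87 and -3.98 in WiBi_0-11 (difference 3.77, adjusted p = 0.058). BMP response genes had a median of 0.26 with 0 of 15 called.

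Neurog2, a basic helix-loop-helix factor that commits pallial progenitors to glutamatergic neurons, rose most among the called genes with a symbol. Its levels were 2.31 and 2.45 in CHIR_8-16, against -0.38 and -1.14 in WiBi_0-11, an 8.81-fold rise (log2 3.14, SE 0.25, adjusted p = 0.024; chr3:127337805-127337864). Of the 17 genes of the neurogenic cascade, Neurog2 was the only one called by this test, but 13 were higher and 1 lower on both slides, with a median of 0.62. Neurod1, a later factor of the cascade, differed by 1.09 (adjusted p = 0.079), Gadd45g by 1.01 (adjusted p = 0.058) and Eomes, a marker of intermediate progenitors, by 0.62 (adjusted p = 0.13). In the Notch pathway Heyl, a transcriptional repressor downstream of Notch, fell 3.20-fold (-5.46 and -4.58 in CHIR_8-16, against -3.84 and -2.85 in WiBi_0-11, adjusted p = 0.024). It was the only member called out of 14, whose median was -0.04.

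Transcription factors of pallial progenitors leaned upward with few calls. Otx1, a homeobox gene of dorsal forebrain, had -3.11 and -2.89 in CHIR_8-16, against -5.12 and -5.20 in WiBi_0-11, a 4.47-fold rise (log2 2.16, SE 0.15, adjusted p = 0.020), although it was well above background on only 1 of the WiBi_0-11 arrays. Of 20 pallial genes 1 was called higher and 0 lower, 12 were higher and 5 lower on both slides, and the median was 0.52. Gli3, a zinc finger factor that holds the pallium against ventral fates, had 2.90 and 2.41 in CHIR_8-16, against 1.61 and 1.38 in WiBi_0-11 (difference 1.16, adjusted p = 0.075). Dmrta1 differed by 2.05 (adjusted p = 0.12) and Otx2 by 1.89 (adjusted p = 0.31), the Otx2 levels being 0.07 and 2.97 in CHIR_8-16 and -1.47 and 0.73 in WiBi_0-11, which overlap.

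**Figure D2:**
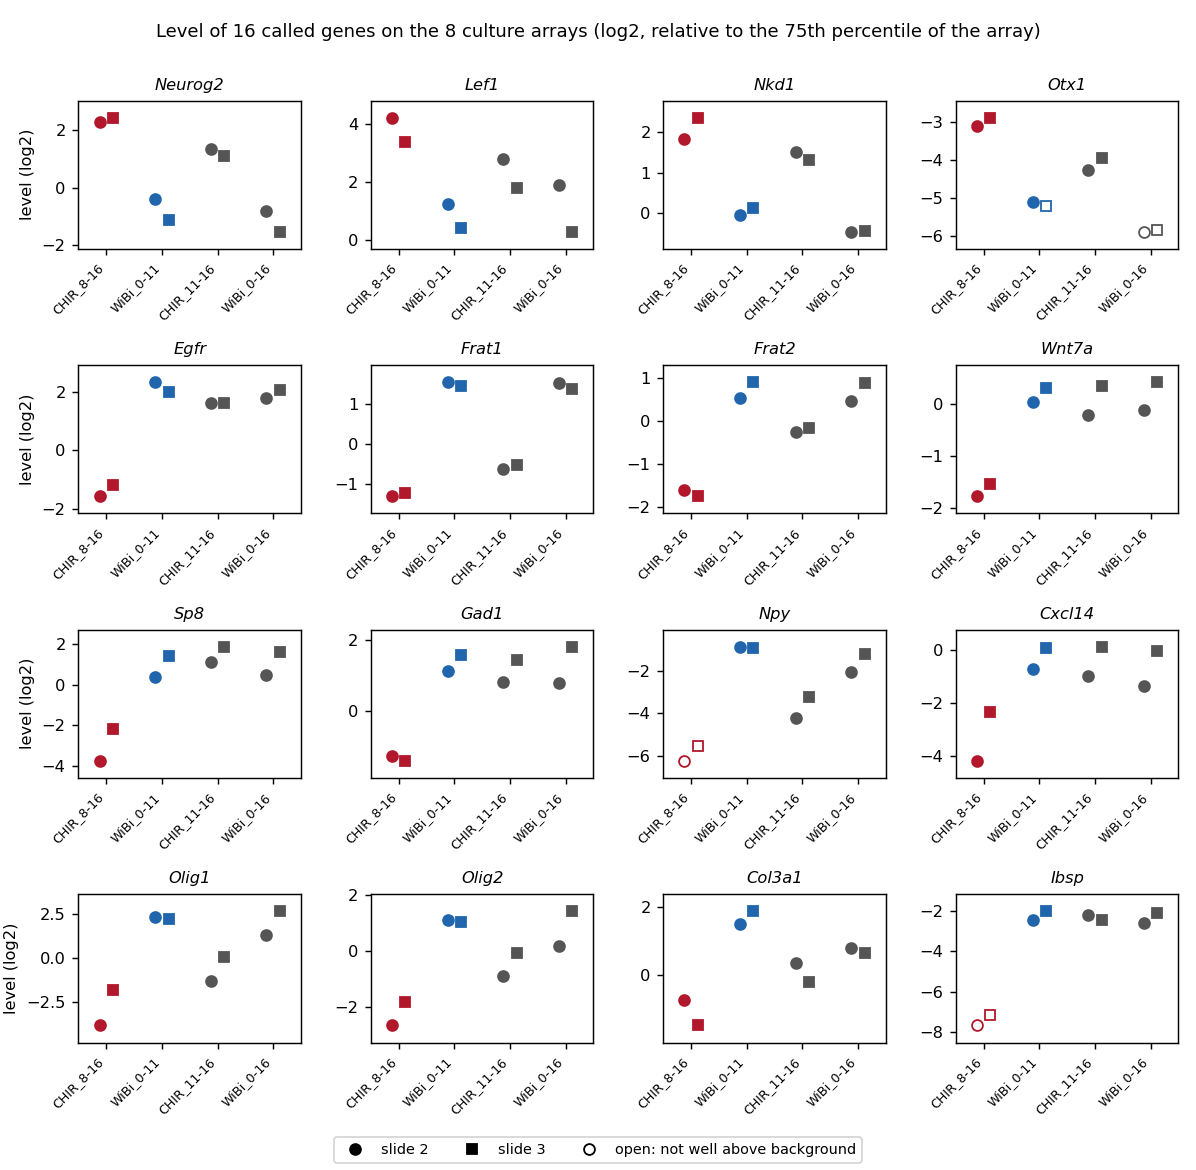
Level (log2, relative to the 75th percentile of the array) of 16 called genes on the 8 culture arrays, with circles for slide 2, squares for slide 3 and open symbols where the probe was not well above background. The 16 genes were called on the gap between CHIR_8-16 and WiBi_0-11, so the lack of overlap between these groups comes with that choice. For Egfr, Sp8, Gad1, Cxcl14, Wnt7a and Ibsp the CHIR_11-16 and WiBi_0-16 arrays lie beside WiBi_0-11.

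Genes of the ventral telencephalon leaned lower in CHIR_8-16. Sp8, a zinc finger factor of interneuron progenitors, fell 14.1-fold, with -3.73 and -2.16 in CHIR_8-16, against 0.35 and 1.41 in WiBi_0-11 (log2 -3.82, SE 0.22, adjusted p = 0.017; chr12:120090880-120090939). Its second probe was lower by 0.43 on slide 2 and by 0.72 on slide 3, a much smaller difference. Of 16 genes of the list 1 was called lower, 11 were lower and 2 higher on both slides, 6 were at least 2-fold lower on both, and the median was -0.84.

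The distal-less factors, which drive GABAergic differentiation, were lower without reaching the threshold. Dlx2 had 0.52 and -0.66 in CHIR_8-16, against 2.73 and 3.91 in WiBi_0-11 (difference -3.39, adjusted p = 0.082). Dlx1 had 0.20 and -2.47 in CHIR_8-16, against 2.08 and 2.54 in WiBi_0-11 (difference -3.45, adjusted p = 0.13). The groups stayed apart for both genes, and the CHIR_8-16 array on slide 3 was the lowest. Gsx2, which patterns the lateral ganglionic eminence, had -1.97 and -3.81 in CHIR_8-16, against -0.10 and 0.28 in WiBi_0-11 (adjusted p = 0.10). Vax1, a ventral homeobox gene, was not well above background on either CHIR_8-16 array and was at least 7.65-fold lower there (adjusted p = 0.071). Lhx6, a factor of medial ganglionic eminence interneurons, lay on the other side, with 4.48 and 3.35 in CHIR_8-16 against 4.01 and 2.86 in WiBi_0-11 (difference 0.48, adjusted p = 0.35).

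Gad1, which makes GABA from glutamate, fell 6.45-fold, with -1.25 and -1.40 in CHIR_8-16, against 1.13 and 1.60 in WiBi_0-11 (log2 -2.69, SE 0.28, adjusted p = 0.047; chr2:70439699-70439758). Npy, a peptide of cortical interneurons, was not well above background in CHIR_8-16, at -6.24 and -5.55, against -0.85 and -0.89 in WiBi_0-11, which makes it at least 26.6-fold lower in CHIR_8-16 (adjusted p = 0.017). The differences on slides 2 and 3 were -2.38 and -2.99 for Gad1 and -5.40 and -4.66 for Npy. Of 14 genes for GABA synthesis and interneuron peptides 2 were called lower and 0 higher, 10 were lower and 1 higher on both slides, and the median was -1.09. Penk, the enkephalin precursor, had -4.25 and -2.09 in CHIR_8-16, against 0.51 and 0.46 in WiBi_0-11 (adjusted p = 0.071). The vesicular GABA transporter Slc32a1 was lower by 1.59 on average (adjusted p = 0.10), with a second probe lower by only 0.38, and Sst, the somatostatin precursor, by 1.56 (adjusted p = 0.11). The log2 of the summed linear level of 5 interneuron markers (Dlx1, Dlx2, Dlx5, Gad1 and Gad2) was 2.29 and 0.89 in CHIR_8-16, against 3.93 and 4.79 in WiBi_0-11, and 4 of the 5 were lower on both slides.

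Olig1, Olig2, Sox8 and Gpr17 of the oligodendrocyte lineage fell, while Mbp of myelin did not pass the test. Olig1, a basic helix-loop-helix factor of this lineage, had -3.80 and -1.82 in CHIR_8-16, against 2.32 and 2.24 in WiBi_0-11, a 34.1-fold fall (log2 -5.09, SE 0.47, adjusted p = 0.037; chr16:91271799-91271858). Olig2, its partner, had -2.67 and -1.83 in CHIR_8-16, against 1.10 and 1.04 in WiBi_0-11, a 9.97-fold fall (log2 -3.32, SE 0.32, adjusted p = 0.039; chr16:91228470-91228529). Both CHIR_8-16 arrays lay far below both WiBi_0-11 arrays, and the CHIR_8-16 array on slide 2 was the lower one for each gene. The probes lie 43.3 kb apart and share at most 5 bases in a row of 60.

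Sox8, a SoxE factor of the lineage, fell 5.75-fold (-4.63 and -4.62 in CHIR_8-16, against -2.12 and -2.07 in WiBi_0-11, adjusted p = 0.041). The noncoding gene Cerox1, named after its value was seen and probed 8.8 kb away, was lower too, at -2.51 and -1.67 in CHIR_8-16 against -0.20 and 0.27 in WiBi_0-11. Gpr17, a receptor of committed precursors, was at least 7.83-fold lower (adjusted p = 0.045), since it was not well above background in CHIR_8-16. Pdgfra, the PDGF receptor that marks precursors, had -4.96 and -3.45 in CHIR_8-16, against -0.37 and -0.34 in WiBi_0-11 (difference -3.85, adjusted p = 0.052, not called). Omg, a myelin glycoprotein of oligodendrocytes and neurons that is in none of the lists, fell 5.35-fold (adjusted p = 0.020). Of 17 lineage genes 4 were called lower and 0 higher, 11 were lower and 2 higher on both slides, and the median was -0.27. Of the 7 marker genes of the lineage 5 were lower and 1 was higher on both slides, so that the markers did not all move one way. Mbp, which encodes a myelin protein, differed by -0.08 (adjusted p = 0.79), and Sox10 by -0.49 (adjusted p = 0.18).

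Egfr, the receptor for epidermal growth factor, present on late forebrain progenitors and glial precursors, fell 11.9-fold. Its levels were -1.58 and -1.20 in CHIR_8-16, against 2.35 and 2.02 in WiBi_0-11 (log2 -3.57, SE 0.20, adjusted p = 0.017; chr11:16813815-16813874). Further Egfr probes were lower by 2.22 and 3.01 and by 2.45 and 1.42 on the 2 slides. Of 11 genes of the EGF receptor family and its ligands Egfr was the only one called, 6 were lower and 2 higher on both slides, and the median was -0.26. Erbb4, a neuregulin receptor, differed by -1.20 (adjusted p = 0.071). In the list of radial glia and astrocyte genes 0 of 17 were called and the median was -0.03. Gfap, the astrocyte filament protein, had -3.64 and -3.33 in CHIR_8-16, against -3.61 and -3.49 in WiBi_0-11. Gjb6, an astrocyte gap junction protein outside that list, was at least 1.97-fold lower in CHIR_8-16 (adjusted p = 0.045). Etv5, an effector of FGF signals, was lower by 1.87 and 1.14 (adjusted p = 0.060), among 13 FGF genes with 0 called.

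Collagens and other genes of connective tissue leaned lower in CHIR_8-16. Col3a1, a fibrillar collagen, had -0.73 and -1.47 in CHIR_8-16, against 1.52 and 1.88 in WiBi_0-11, a 6.99-fold fall (log2 -2.81, SE 0.28, adjusted p = 0.045; chr1:45405589-45405648). Ibsp, a sialoprotein of bone matrix, was not well above background in CHIR_8-16, at -7.65 and -7.13, against -2.45 and -2.03 in WiBi_0-11, so that it was at least 10.3-fold lower in CHIR_8-16 (adjusted p = 0.013; chr5:104740413-104740472). Of 27 genes of the list 2 were called lower and 0 higher, 19 were lower and 3 higher on both slides, 10 were at least 2-fold lower on both, and the median was -0.93. Postn, a matrix protein of fibroblasts, had -2.35 and -3.80 in CHIR_8-16, against -0.06 and 0.10 in WiBi_0-11 (adjusted p = 0.082). Col1a1 and Col1a2, the chains of type I collagen, were lower by 2.77 (adjusted p = 0.095) and by 1.86 (adjusted p = 0.10). The log2 of the summed linear level of 6 mesenchyme markers was 2.37 and 0.93 in CHIR_8-16, against 3.74 and 3.78 in WiBi_0-11, and 5 of the 6 were lower on both slides. Their part in the other differences was not tested. Twist1, a mesenchymal transcription factor, differed by 0.17 and Acta2, of smooth muscle, by 0.20, both without a call.

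Single genes outside this list fell too. Cxcl14, a chemokine, had -4.19 and -2.36 in CHIR_8-16, against -0.73 and 0.07 in WiBi_0-11, a 7.68-fold fall (adjusted p = 0.030). Cxcl12, a chemokine named after its value was seen, guides migrating interneurons and Cajal-Retzius cells and is made by the meninges, and it had -3.30 and -3.11 in CHIR_8-16 against -0.75 and -0.85 in WiBi_0-11. Its second probe was lower by 2.20 and 2.81. Lama4, a laminin chain of vessels that was likewise picked afterwards, was not well above background in CHIR_8-16, at -5.75 and -6.19, against -3.89 and -4.02 in WiBi_0-11, and was at least 2.64-fold lower in CHIR_8-16 (adjusted p = 0.024). Pecam1 of endothelium was at -2.77 and -2.39 in CHIR_8-16, against -2.77 and -2.48 in WiBi_0-11, and 0 of 8 endothelium, blood and microglia genes were called. In the other direction the embryonic myosin Myh3 rose 6.11-fold (-3.24 and -3.58 in CHIR_8-16, against -5.53 and -6.51 in WiBi_0-11, adjusted p = 0.021), with 1 of the WiBi_0-11 arrays well above background. The muscle regulator Myod1 differed by 0.19, and Myog, Actc1 and Ckm were not among the tested genes. Tnnt1 of the muscle list was higher by 1.44 and 1.76 (adjusted p = 0.078), and its second probe by 1.70 and 1.79. Of 5 muscle genes tested 1 was called higher, 4 were higher and 0 lower on both slides, and the median was 0.19.

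**Figure D3:**
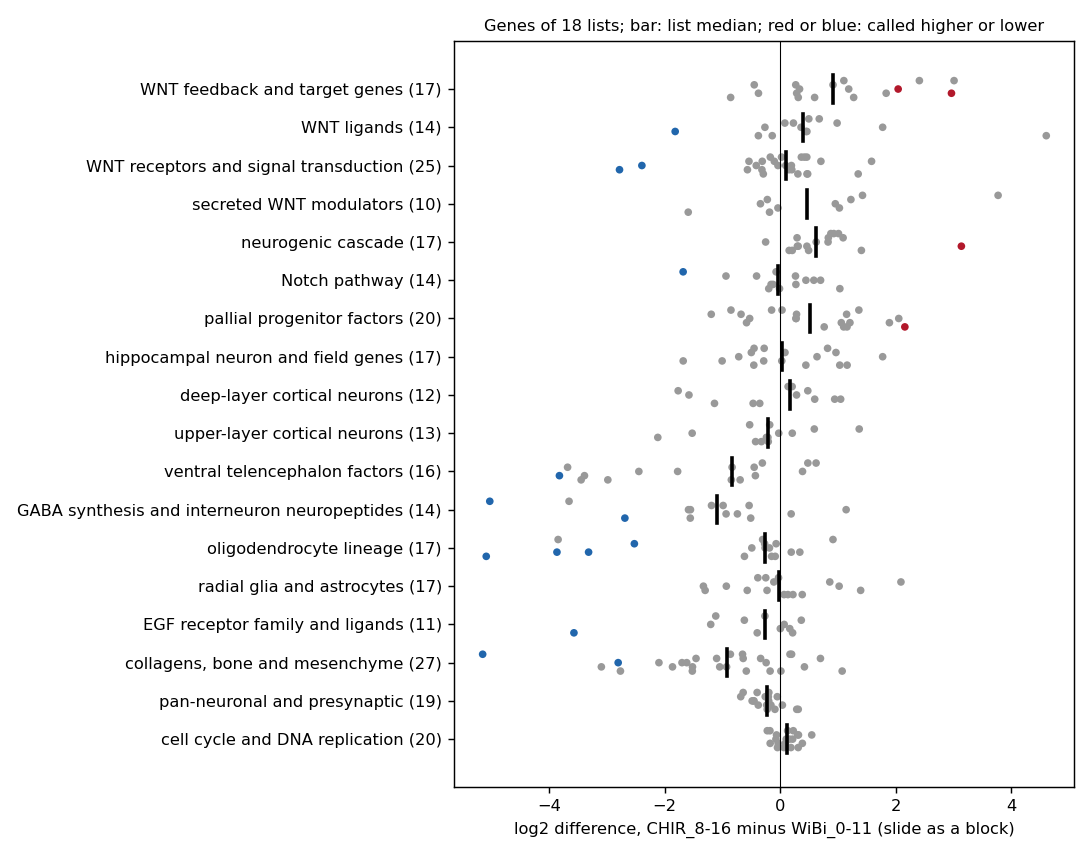
Log2 difference (x axis, CHIR_8-16 minus WiBi_0-11) of each tested gene of 18 lists, 1 row per list with the number of genes in brackets, a black bar at the list median, and red or blue for genes called higher or lower. The medians run from -1.09 for the GABA list and -0.93 for collagens to 0.92 for WNT feedback and target genes, beside 0.05 over all genes.

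Genes that mark hippocampal neurons and fields did not differ as a group. Of 17 such genes 0 were called, 7 were higher and 7 lower on both slides, and the median was 0.03. Prox1, a homeobox factor of dentate granule cells, had -2.24 and -2.09 in CHIR_8-16, against -2.62 and -2.60 in WiBi_0-11 (difference 0.45, adjusted p = 0.15). Zbtb20, which specifies hippocampal pyramidal neurons, had 1.62 and 1.42 in CHIR_8-16, against 1.72 and 1.27 in WiBi_0-11, and its difference of 0.03 turned to -0.10 when arrays were scaled to their median. The groups stayed apart for Prox1 and overlapped for Zbtb20. On the E15 arrays hippocampus stood above cortex for both, at -0.84 against -4.71 for Prox1 and 4.89 against 2.46 for Zbtb20. Nfix, a nuclear factor with a role in hippocampal development, differed by 1.03 (adjusted p = 0.10), and Meis1 was lower by 0.64 and 1.37 on the 2 slides (adjusted p = 0.11).

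Cortical layer genes did not pass either. The median was 0.17 over 12 deep-layer genes and -0.21 over 13 upper-layer genes, with 0 called. Tbr1, a factor of layer 6 neurons, had 5.28 and 5.18 in CHIR_8-16, against 5.18 and 4.72 in WiBi_0-11 (adjusted p = 0.31), and Fezf2, which specifies subcortical projection neurons, had 2.19 and 1.24 in CHIR_8-16, against 1.67 and 0.57 in WiBi_0-11 (adjusted p = 0.16). Bcl11b, which works downstream of Fezf2, was lower by 0.57 and 0.37 (adjusted p = 0.19). Larger differences were those of Mef2c, a neuronal transcription factor, with -3.96 on both CHIR_8-16 arrays against -1.93 and -1.76 in WiBi_0-11 (adjusted p = 0.054), of Ldb2, at -1.65 and -0.60 in CHIR_8-16 against -0.02 and 1.30 in WiBi_0-11 (adjusted p = 0.065), and of Pou3f2, an upper-layer factor that was higher, at 1.01 and 2.13 in CHIR_8-16 against -0.12 and 0.52 in WiBi_0-11 (adjusted p = 0.12). Further Pou3f2 probes differed by 1.76 and 1.79 on average. The pallial factor Emx2 differed by 0.27 (adjusted p = 0.41) and Reln, of Cajal-Retzius cells, by 0.25 (adjusted p = 0.53). The plot of differences by list shows these groups around 0.

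Genes of the hem, diencephalon and midbrain held a few large differences that varied between the slides. Ttr, the transthyretin of choroid plexus, had -0.68 and -4.15 in CHIR_8-16, against -5.15 and -6.35 in WiBi_0-11 (adjusted p = 0.15). It was well above background on 2 CHIR_8-16, 1 WiBi_0-11, 1 CHIR_11-16 and 0 WiBi_0-16 arrays. Ttr thus passed the brightness filter only through the group where it was high, and its difference is given as a description. Clic6 of the same tissue was lower by 0.66 and 2.31. The log2 of the summed linear level of 4 choroid plexus markers was 0.15 and -0.42 in CHIR_8-16, against -1.26 and -1.46 in WiBi_0-11. Gbx2, a factor of thalamus and anterior hindbrain, had -2.74 and -0.88 in CHIR_8-16, against -4.62 and -5.45 in WiBi_0-11 (adjusted p = 0.10). Pou4f1, of habenular and midbrain neurons, had 0.19 and 1.93 in CHIR_8-16, against -0.87 and -1.06 in WiBi_0-11 (adjusted p = 0.13). Among axon guidance genes Robo3, the receptor of commissural axons, was higher by 2.88 on each slide (adjusted p = 0.074), and the adhesion molecule Cntn2 by 2.02 and 3.27 (adjusted p = 0.065). Of the 12 hem and choroid plexus, 15 midbrain and isthmus, 10 diencephalon and hypothalamus and 23 axon guidance genes tested, 0 were called.

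Further called rises lay outside the lists. Gm10837, a predicted gene named after its value was seen, had 2.34 and 1.12 in CHIR_8-16, against -0.35 and -1.58 in WiBi_0-11, a 6.47-fold rise (adjusted p = 0.022). Stat4, a transducer of cytokine signals, had -2.47 and -1.61 in CHIR_8-16, against -4.48 and -4.20 in WiBi_0-11, a 4.93-fold rise (adjusted p = 0.037). Gadd45a, induced by growth arrest and DNA damage, had 1.27 and 1.20 in CHIR_8-16, against -0.50 and -0.29 in WiBi_0-11, a 3.09-fold rise (adjusted p = 0.039), and Hrk, an activator of apoptosis in neurons, had 4.79 and 4.21 in CHIR_8-16, against 3.22 and 2.70 in WiBi_0-11, a 2.90-fold rise (adjusted p = 0.026). Groups did not overlap for any of these, which were called on that gap. Since Slc35d3 was not well above background in WiBi_0-11, it was at least 2.52-fold higher in CHIR_8-16 (adjusted p = 0.024). Echdc2 (3.08-fold, adjusted p = 0.039), Nckap5 (2.70-fold), the glutaminase Gls2 (2.58-fold) and Tbc1d4, which regulates glucose transporter traffic (2.48-fold, adjusted p = 0.045), rose as well.

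Further called falls reached from neurotransmission to metabolism. Gda, a guanine deaminase of forebrain neurons, fell 10.5-fold, with -1.99 and -1.88 in CHIR_8-16, against 1.03 and 1.88 in WiBi_0-11 (adjusted p = 0.045). Gcg, the glucagon precursor, fell 8.26-fold (-5.66 and -5.86 in CHIR_8-16, against -2.26 and -3.17 in WiBi_0-11, adjusted p = 0.039), with 1 CHIR_8-16 array well above background. Chrm1, a muscarinic receptor, was at least 2.37-fold lower (adjusted p = 0.023) and Allc, an enzyme of purine breakdown, at least 1.58-fold (adjusted p = 0.026). Allc was well above background on 0 CHIR_8-16 arrays and 1 WiBi_0-11 array, and passed the brightness filter only through CHIR_11-16. Ubald1 and Ubald2, paralogs on different chromosomes whose probes share at most 7 bases in a row and which were picked after their values were seen, were both called lower: Ubald1 had -0.24 and -0.53 in CHIR_8-16, against 1.71 and 1.13 in WiBi_0-11, and Ubald2 had 4.15 and 3.75 in CHIR_8-16, against 5.39 and 5.34 in WiBi_0-11.

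Il23r, a cytokine receptor, and the pseudogene Phf8-ps were well above background in WiBi_0-11 and in no other group. Il23r was at -7.97 and -7.16 in CHIR_8-16, against -3.28 and -3.26 in WiBi_0-11, and it was not well above background on any of the other 6 culture arrays nor on the 4 embryonic ones, which makes it at least 5.06-fold lower in CHIR_8-16. Phf8-ps was at least 2.14-fold lower in CHIR_8-16. In all, 5 of the 59 genes called lower were well above background on both WiBi_0-11 arrays and on 0 of the other 6 culture arrays, and 2 of the 20 called higher were so in CHIR_8-16. These genes passed the brightness filter only through the group where they were high and so had to differ, and their calls are given as a description. The same holds for AU016765, called higher, which was well above background on 2 CHIR_8-16, 0 WiBi_0-11, 1 CHIR_11-16 and 1 WiBi_0-16 arrays. Another 10 of the 59, with Ibsp, Npy, Gpr17 and Chrm1 among them, were well above background on 0 of the CHIR_8-16 arrays and on all 6 of the others.

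The second pair of culture groups shares no array with the first and gave values of the called genes in other samples. Its arrays were part of the fit that set each gene's spread, so genes that agreed between slides there were called more readily. The counts below are therefore not an independent test of the calls. In CHIR_11-16 minus WiBi_0-16, 17 of the 20 genes called higher were also higher on both slides and 2 were lower on both, beside 32.0% of all genes that were higher there on both slides. Of the 59 called lower, 42 were lower and 5 higher on both slides, beside 38.8% of all genes lower there on both. The median difference of the 20 genes was 0.93 there, against 1.98 in the comparison that called them, and that of the 59 genes was -0.46, against -2.28. No gene (0.0%) was called in CHIR_11-16 minus WiBi_0-16 in limma, where the fit tested all 25538 genes.

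Several WNT and lineage genes differed in the second pair as well. Neurog2 differed by 2.41 (1.37 and 1.10 in CHIR_11-16, against -0.82 and -1.54 in WiBi_0-16), Frat1 by -2.04 (-0.63 and -0.52 in CHIR_11-16, against 1.54 and 1.38 in WiBi_0-16) and Nkd1 by 1.85 (1.51 and 1.32 in CHIR_11-16, against -0.45 and -0.43 in WiBi_0-16). Sp5 differed by 5.38 there and by 3.01 in CHIR_8-16 minus WiBi_0-11. Olig1 differed by -2.60 (-1.29 and 0.08 in CHIR_11-16, against 1.34 and 2.66 in WiBi_0-16) and Gpr17 by -3.02. By contrast Egfr differed by -0.31, Wnt7a by -0.09, Gad1 by -0.17, Ibsp by 0.05, Cxcl14 by 0.28 and Sp8 by 0.44. The test of the difference between both comparisons called 0 genes (0.0%), with 3840 at an unadjusted p under 0.05 and a smallest adjusted p of 0.088 (Ibsp, Phf8-ps and a noncoding transcript), so for no gene was a larger difference in the CHIR_8-16 comparison established. It gave an adjusted p of 0.10 for Sp8, 0.11 for Egfr, 0.13 for Wnt7a and for Cxcl14, 0.17 for Gad1, 0.26 for Frat1, 0.39 for Neurog2 and 0.75 for Nkd1.

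**Figure D4:**
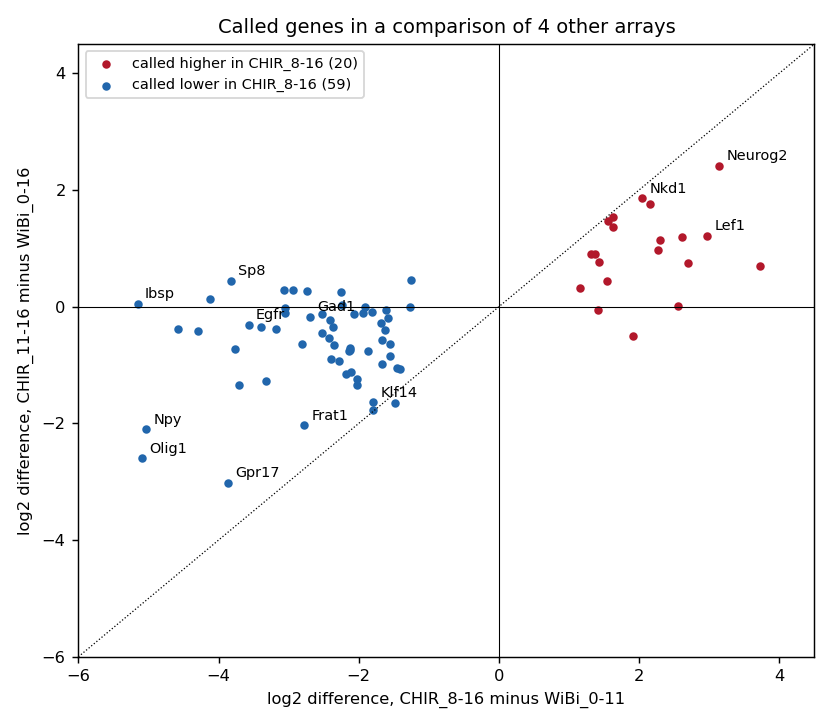
Log2 difference of the called genes in CHIR_8-16 minus WiBi_0-11 (x axis) and in CHIR_11-16 minus WiBi_0-16 (y axis), which share no array; red marks 20 genes called higher, blue 59 called lower, and the dotted line equal differences. Neurog2, Nkd1, Frat1 and Gpr17 lie near the dotted line, whereas Ibsp, Sp8, Egfr and Gad1 lie near 0 on the y axis.

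Placed among all 4 groups, CHIR_8-16 was the highest on both slides for 20 of the 20 genes called higher and the lowest for 53 of the 59 called lower. WiBi_0-11 was the group at the opposite end for 5 of the 20 and for 30 of the 59. For 38 of the 59 genes called lower both CHIR_11-16 and WiBi_0-16 were on average within 1 log2 unit of WiBi_0-11, and the same held for 10 of the 20 called higher. CHIR_11-16 was nearer to CHIR_8-16 than to WiBi_0-11 for 9 of the 20 and 21 of the 59, and WiBi_0-16 for 1 and 5. These counts describe genes chosen for the gap between 2 of the groups.

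On the E15 arrays the genes that rose in CHIR_8-16 were often highest in hippocampus and those that fell in ventral telencephalon or midbrain. Of 13 genes called higher, with a symbol and well above background in an embryonic tissue, 7 were highest in hippocampus, 3 in midbrain, 2 in ventral telencephalon and 1 in cortex. Of 47 such genes called lower, 24 were highest in midbrain, 18 in ventral telencephalon, 4 in hippocampus and 1 in cortex. Over 15075 genes with a symbol the shares were 26.4% for hippocampus, 27.6% for midbrain, 14.0% for ventral telencephalon and 31.9% for cortex. With 1 array per tissue no spread is known, and these shares were not tested.

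Single genes followed these tissues to a varying degree. Neurog2 stood at 3.32 in hippocampus, 2.90 in cortex, 0.28 in ventral telencephalon and -0.86 in midbrain. Lef1 stood at 3.16 in hippocampus and 3.94 in midbrain, against 0.66 in cortex and 0.31 in ventral telencephalon. Gad1 was near 3.45 in ventral telencephalon and 3.47 in midbrain and lower in hippocampus (0.71) and cortex (0.79), and Sp8 was highest in ventral telencephalon (1.68). Frat1 was between 1.72 and 2.36 in all 4 tissues, closer to WiBi_0-11 than to CHIR_8-16. Col3a1 was highest in midbrain (2.94) and then in hippocampus (1.17), and lower in cortex (-1.62) and ventral telencephalon (-1.76). The tissues lay on a slide of their own, so that slide and tissue cannot be told apart from culture.

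**Figure D5:**
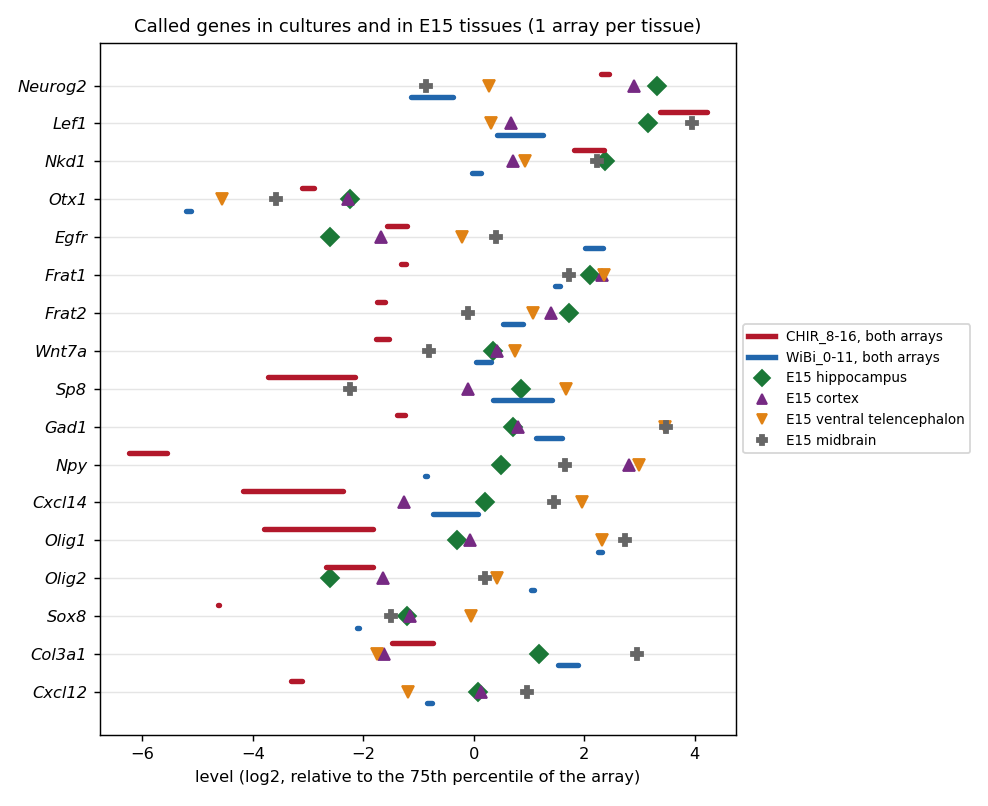
Level (x axis, log2 relative to the 75th percentile of the array) of 17 called genes, with a red bar spanning both CHIR_8-16 arrays, a blue bar spanning both WiBi_0-11 arrays and symbols for the 4 E15 tissues, 1 array each. In CHIR_8-16 the Nkd1 bar (1.82 to 2.35) spans midbrain (2.22) and ends just below hippocampus (2.37). The Lef1 bar (3.37 to 4.22) spans midbrain (3.94) and lies above hippocampus (3.16). Neurog2 in CHIR_8-16 lies below cortex (2.90) and hippocampus (3.32), and closer to both than in WiBi_0-11. Frat1 and Wnt7a in CHIR_8-16 lie below all 4 tissues, as do Frat2, Gad1, Npy, Cxcl14, Olig1, Sox8 and Cxcl12.

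Other probes of the called genes, where bright on both arrays of at least 1 group, mostly moved with the main probe. There were 20 called genes with 31 such probes, of which 28 differed in the direction of the main probe on both slides, 2 in the opposite direction and 1 in different directions on the 2 slides. The 2 opposite ones were second probes for AW551984 and Nipal3, with differences of 0.15 and 0.28.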

How the data were processed

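RNA of 8 culture and 4 embryonic samples (50 ng, Cy3) was read on 1-colour Agilent arrays of design 028005. Per the file headers, the deposited intensity values are Agilent Feature Extraction 10.7.3.1 output, whereas the submitters' processing notes name version 9.1 and limma. The deposited table holds the authors' processed log2 values of the same arrays (column medians 6.19 to 6.24), with the centring unstated, and served as an alternative. From the processed signals, log2 values minus each array's 75th percentile were computed. Control spots were left out, probes had to be well above background on both arrays of a culture group, and the brightest passing probe stood for a gene. This left 25538 genes from 36430 probes. limma 3.58.1 (R 4.3.3) fitted the 8 culture arrays with slide as a block, and p-values were Benjamini-Hochberg adjusted. All replicates 1 lay on slide 2 and all replicates 2 on slide 3, and deviations of arrays on the same slide correlated at 0.579 to 0.667 over 6 group pairs, so the numbers pair the samples. Where a probe was well above background on 0 arrays of the lower group, the fold is a lower bound from the dimmest signal well above background. The fit was tested on simulated data.

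Members and gene lists were chosen with earlier results of these data known. Named genes were the 20 largest called rises and falls with an established symbol, every called list member, up to 4 uncalled list members per list that were 2-fold apart on both slides, and 20 genes named whatever their result. Other genes were picked after their values were seen. Alternatives were the block, scaling, background correction, filter, probe rule, prior, arrays in the fit and each array left out. Probe coordinates (mm9) are those of the files. Gene symbols were looked up in RefSeq by the accession or name of each probe, and the deposited name was kept where none was found. Promoters came from RefSeq (GRCm38.p6).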

Additional observations from a re-analysis of the deposited data

How the results depend on the processing

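Same-numbered arrays share a slide, and the slide block raised the calls: 79 genes were called with it and 3 with no replicate block (0 higher, 3 lower). Median scaling gave 202 calls (172 lower), normexp with quantile normalization 444 (158 higher, 286 lower), the deposited values 195 (52 higher, 143 lower) and a trended prior 1030 (413 higher, 617 lower). All genes without a brightness filter gave 0 calls (5246 at an unadjusted p under 0.05) and the 4 arrays alone 0 (3467). Leaving out 1 array gave 0 to 110 calls, 0 to 62 higher and 0 to 48 lower: 0 without either WiBi_0-11 array, 110 without CHIR_8-16 replicate 1 (34 of them shared with the 79) and 85 without replicate 2 (20 shared). Of the 79 genes, 79 were also called under median scaling, 78 with the trended prior, 69 in the deposited table and 62 with normexp. Higher calls made up 25.3% of all calls, against 14.9% under median scaling, 35.6% with normexp, 40.1% with the trended prior, and 56.4% and 56.5% when CHIR_8-16 replicate 1 or 2 was left out, where most calls were higher. Median scaling moved the median of all genes to -0.08, against 0.05. The genes 2-fold higher on both slides numbered 145 under median scaling, 65 with normexp and 134 in the deposited table, against 223, and those 2-fold lower 155 with normexp, against 298. The test of the difference between the 2 comparisons called 2 genes after quantile normalization and 31 with normexp, against 0. The Zbtb20 difference was -0.10 under median scaling and ran from -0.07 (WiBi_0-11 replicate 2 left out) to 0.13 with 1 array left out, being -0.05 when CHIR_8-16 replicate 2 was left out. That of Mki67 ran from -0.21 (CHIR_8-16 replicate 1 left out) to 0.58. Of 88 named genes 36 were called, and 33 of these 36 lost their call without the block. Of the list medians, 9 turned sign under an alternative. The cause of these shifts was not tested. Probes near background limit what can be measured of dim genes.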
